A study of Rattus norvegicus with 9 samples.

Results

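The urea cycle genes were followed in RNA of rat liver cells. They were listed by their role in the pathway as Cps1, Otc, Ass1, Asl, Arg1, Arg2, Nags, Slc25a15 and Slc25a13, and 8 of the 9 had a row of their own on the array, out of 14497 genes with such a row. Slc25a13, the mitochondrial aspartate and glutamate carrier, was not analysed here. The samples were 3 preparations each of adult hepatocytes, of OC.2+ and of OC.2- cells from fetal liver, with 1 Affymetrix Rat ST 1.0 array each. All came from livers of F344 rats, and the labels name no transgene or drug treatment in any of them. The adult animals were aged 5 to 6 weeks, and their livers were perfused with collagenase. The OC.2+ fetal cells carry the label LAP+/OC.2+ E19 fetal hepatocytes and the OC.2- fetal cells the label LAP+/OC.2- E19 fetal hepatocytes. Both came from embryonic day 19, were digested with collagenase and were immunopurified with antibodies to leucine aminopeptidase (LAP) and to OC.2. One selection program, for double positive cells, is recorded for all 6 fetal samples, and a further label field calls the OC.2+ ones LAP-OC2+. The groups used here follow the titles. Each sample is titled a biological replicate, with no word on how many animals or litters it pooled, so p-values measure the spread between these preparations.

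The urea cycle turns ammonia into urea in periportal hepatocytes. It starts in mitochondria, where Nags makes the activator that Cps1 needs to condense ammonia with bicarbonate, and Otc joins the product to ornithine, which Slc25a15 carries in. It ends in the cytosol, where Ass1 and Asl build arginine and Arg1 splits it into urea and ornithine. Arg2 is the mitochondrial arginase, known mainly from tissues other than liver. In the rat the pathway is known to be set up before birth and to strengthen around birth under glucocorticoids and glucagon.

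Genes of other blood and liver cells differed between the same groups. The summed intensity of the 10 granulocyte markers was 768 to 777 in adult hepatocytes, 19513 to 22011 in OC.2+ and 684 to 770 in OC.2- cells. For the 8 erythroid markers measured it was 795 to 837, 31521 to 32049 and 17472 to 20169 in the same order of groups. Between the fetal groups 7 of these were higher and 1 lower in OC.2+ cells (20.3% and 18.2% of all genes). The lower one, Hbe1, averaged 10.79 in OC.2+ and 12.58 in OC.2- cells on the log2 scale. The 12 hepatocyte genes that serve here as a yardstick of hepatocyte RNA (Alb, Ttr, Tf, Apoa1, Apob, Apoh, Ahsg, Fgb, Fga, Serpina1, Hnf4a and Rbp4) had a mean log2 intensity of 12.90 ± 0.06 in adult hepatocytes, 10.74 ± 0.11 in OC.2+ and 12.69 ± 0.07 in OC.2- cells (SD, n = 3). The endothelial markers were highest in OC.2- cells, as was the summed intensity of the stellate and mesenchymal markers. The summed intensity of the 6 endothelial markers was 660 to 862 in adult hepatocytes, 563 to 575 in OC.2+ and 3286 to 4416 in OC.2- cells, and all 6 were lower in adult hepatocytes than in OC.2- cells. That of the 8 stellate and mesenchymal markers was 1208 to 1340, 3772 to 4536 and 5008 to 5839, and that of the 10 macrophage markers 1158 to 1278, 1701 to 2050 and 2206 to 2884. Of the 8 stellate and mesenchymal markers, 7 were lower and 1 higher in adult hepatocytes than in OC.2- cells (23.7% and 20.9% of all genes). The higher one, Pdgfrb, averaged 8.05 in adult hepatocytes, 6.46 in OC.2+ and 7.16 in OC.2- cells on the log2 scale. Vim, of the same list, averaged 11.48 in OC.2+ and 11.24 in OC.2- cells. Ductal markers were dim in every group, with a summed intensity over 6 genes of 386 to 423, 450 to 459 and 457 to 634. A lower level of a gene can mean fewer hepatocytes in a preparation or less of that RNA per hepatocyte, and these cannot be told apart in bulk RNA. The part of these cell mixtures in the differences below was not tested, except that the members are also given relative to the yardstick genes.

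Adult hepatocytes were set against OC.2- fetal cells first, which asks how far the cycle was already in place shortly before birth. Of the 8 measured members 7 were higher in adult hepatocytes at limma adjusted p under 0.05 and none was lower, where 44.5% of all genes were called, 20.9% higher and 23.7% lower. Their median log2 difference was 1.26, against -0.07 over all genes, and the same 7 had adult arrays that lay entirely above the OC.2- arrays, as 23.2% of all genes did (28.2% lay entirely below). Of the 7, 5 were at least 2-fold higher in adult hepatocytes and none was as far below (6.58% and 4.06% of all genes). The gap was uneven along the pathway. Of the 7, Otc (1.38-fold) and Cps1 (1.71-fold) were the least below their adult level in the OC.2- cells. Arg1, Asl and Slc25a15 were several-fold below theirs. These directions for the 7 genes were kept under every scaling tried, while the call for Otc was not.

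Cps1, the carbamoyl phosphate synthetase of the cycle, had log2 intensities of 12.36, 12.20 and 12.29 on the adult arrays, against 11.47, 11.69 and 11.37 on the OC.2- arrays. The groups did not overlap. Cps1 was 1.71-fold higher in adult hepatocytes (95% interval 1.49 to 1.97, limma adjusted p = 1.73e-05). Otc, ornithine transcarbamylase, had 10.60, 10.46 and 10.29 in adult hepatocytes, against 9.98, 10.10 and 9.86 in OC.2- cells. The lowest adult array lay just above the highest OC.2- array. Otc was 1.38-fold higher in adult hepatocytes (95% interval 1.13 to 1.68, adjusted p = 0.0111). That call ended without adult replicate 1 (adjusted p = 0.0517) and after quantile normalization (log2 difference 0.23, adjusted p = 0.175), and the log2 difference ranged from 0.23 to 0.59 over all settings. Nags, the N-acetylglutamate synthase, had 9.03, 8.97 and 8.97 in adult hepatocytes, against 7.94, 7.89 and 7.66 in OC.2- cells, a 2.23-fold difference (95% interval 1.96 to 2.54, adjusted p = 1.86e-07).

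The ornithine carrier Slc25a15 had 10.20, 10.02 and 10.14 in adult hepatocytes, against 8.37, 8.40 and 8.11 in OC.2- cells, and was 3.55-fold higher in the adult (95% interval 3.04 to 4.15, adjusted p = 1.34e-08). Among the cytosolic enzymes, Ass1 (argininosuccinate synthase) had 13.03, 12.86 and 12.76, against 11.51, 11.71 and 11.35, and was 2.57-fold higher in adult hepatocytes (95% interval 2.20 to 3.00, adjusted p = 2.25e-07). Asl (argininosuccinate lyase) had 9.65, 9.79 and 9.70 in adult hepatocytes, against 7.78, 7.87 and 7.59 in OC.2- cells. Its adult arrays stood far above the fetal ones, at a 3.91-fold difference (95% interval 3.43 to 4.45, adjusted p = 1.15e-09). Arg1, liver arginase, had 10.93, 10.46 and 10.37 in adult hepatocytes, against 8.56, 8.65 and 8.30 in OC.2- cells, a 4.23-fold difference (95% interval 3.42 to 5.23, adjusted p = 7.57e-08). The intervals of Slc25a15, Asl and Arg1 overlapped each other and lay above those of Cps1, Otc, Nags and Ass1.

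Arg2 was the exception. It had 5.35, 5.24 and 5.09 in adult hepatocytes, against 5.34, 5.40 and 5.38 in OC.2- cells, and the arrays overlapped. The log2 difference was -0.15 ± 0.09 (SE, adjusted p = 0.184, 95% interval -0.33 to 0.04). All of its values lay below the median of every array (6.31 to 6.49), and no detection calls were used here, so its values do not show whether the gene was expressed.

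**Figure D1:**
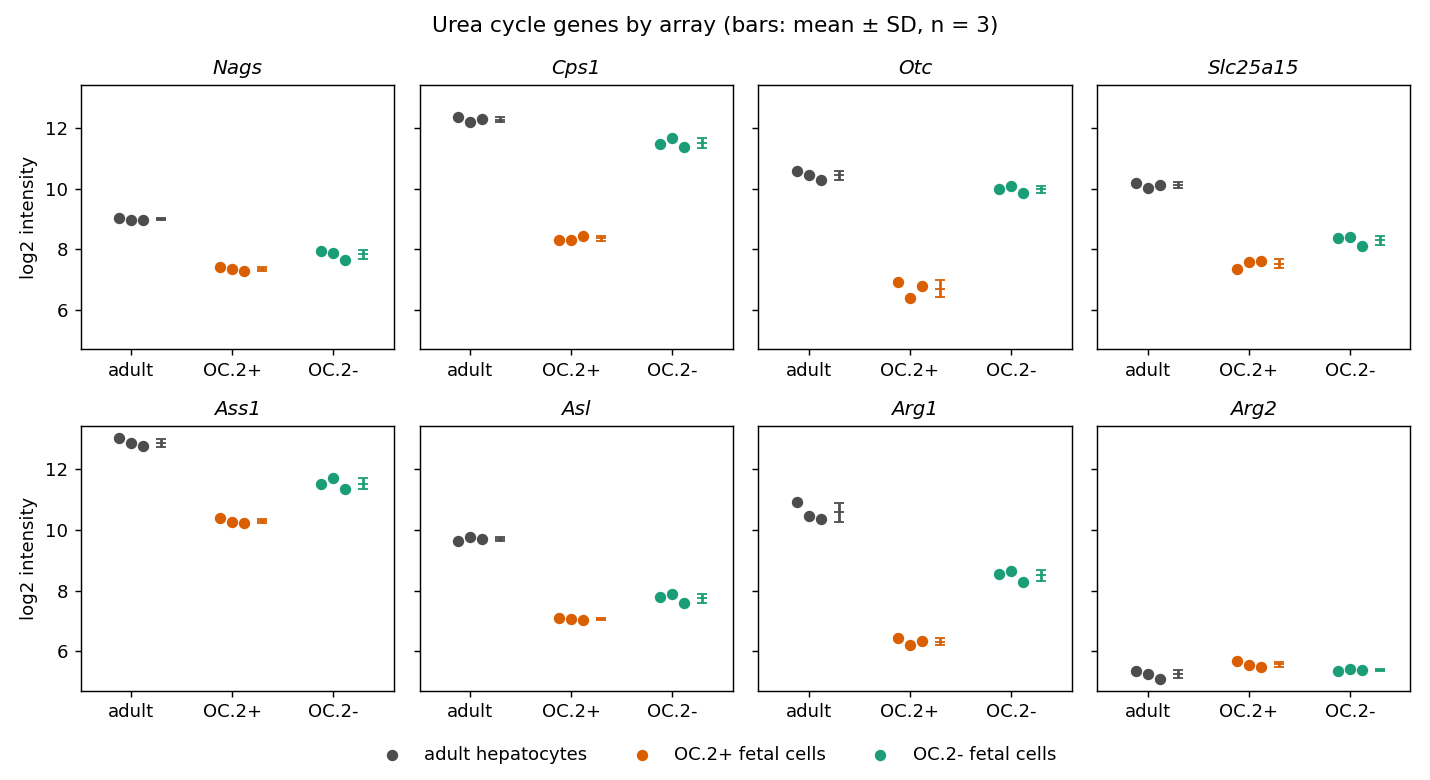
Log2 intensity of the 8 measured urea cycle genes on each array, with a point per array and the mean ± SD (n = 3) beside it, with adult hepatocytes at the left, then the OC.2+ and the OC.2- cells. Cps1 and Otc in OC.2- cells lie below the adult arrays but nearer to them than to the OC.2+ arrays. Asl and Slc25a15 in OC.2- cells lie nearer the OC.2+ arrays, and Arg2 is dim in all groups.

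Adult hepatocytes were then set against OC.2+ fetal cells. Here 7 members were higher in adult hepatocytes and 1, Arg2, was lower, where 55.4% of all genes were called, 23.4% higher and 32% lower. Each of the 7 was at least 2-fold higher, against 11.1% of all genes, and none was 2-fold lower, against 7.82%. All 7 also had adult arrays entirely above the OC.2+ arrays (25% of all genes) and Arg2 entirely below them (37.2%). Their directions held after quantile normalization, median centring and cyclic loess, while relative to the 12 yardstick genes Nags turned round. The median log2 difference of the 8 members was 2.62, against -0.11 over all genes.

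Arg1 had 6.44, 6.19 and 6.32 in OC.2+ cells, set against the adult values above, and was 19.2-fold higher in adult hepatocytes (95% interval 15.6 to 23.8, adjusted p = 2.34e-11). Cps1 had 8.32, 8.31 and 8.45 in OC.2+ cells and was 15.2-fold higher in the adult (95% interval 13.2 to 17.5, adjusted p = 1.41e-12). Otc had 6.92, 6.39 and 6.80 in OC.2+ cells and was 13.4-fold higher in the adult (95% interval 11 to 16.3, adjusted p = 3.98e-11). All OC.2+ values of Arg1, and that of Otc on replicate 2, lay below the median of their own array (6.45 to 6.47), where differences of dim genes are understated. The folds of Arg1 against OC.2+ cells are given as for every member, and rest on dim signal. Asl (7.11, 7.05 and 7.04), Slc25a15 (7.35, 7.59 and 7.62) and Ass1 (10.38, 10.25 and 10.25) in OC.2+ cells formed a middle group. Adult hepatocytes exceeded them 6.25-fold for Asl, 6.07-fold for Slc25a15 and 6.02-fold for Ass1, with 95% intervals that together ran from 5.15 to 7.12. Nags had the narrowest gap of the 7, at 7.42, 7.35 and 7.28 in OC.2+ cells and a 3.11-fold difference (95% interval 2.73 to 3.55, adjusted p = 2.43e-09).

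Arg2 had 5.66, 5.54 and 5.47 in OC.2+ cells, and every one of these lay above the adult arrays. It was lower in adult hepatocytes by 1.26-fold (95% interval 1.10 to 1.43, adjusted p = 0.00544). The call was lost after quantile normalization (adjusted p = 0.0999), median centring (adjusted p = 0.0904) and cyclic loess (adjusted p = 0.0833). With values this far below the array medians it stands only as a value of a dim row.

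The last comparison set the OC.2+ against the OC.2- fetal cells, which share age, strain and digestion. Of the 8 members 7 were lower in the OC.2+ cells and 1 did not pass the test, where 38.5% of all genes were called, 18.2% lower and 20.3% higher. The median log2 difference was -1.0, against 0.04 over all genes. This direction held after quantile normalization, median centring and cyclic loess, but relative to the yardstick genes 5 members were higher and 2 lower in OC.2+ cells, where that centring made 96.9% of all genes higher and 1.77% lower. At least 2-fold lower were 4 members (6.63% of all genes). Otc was 9.71-fold lower in OC.2+ cells (95% interval 7.97 to 11.8, adjusted p = 6.65e-10) and Cps1 8.85-fold lower (95% interval 7.69 to 10.2, adjusted p = 9.43e-11). Arg1 was 4.55-fold lower (95% interval 3.68 to 5.62, adjusted p = 4.62e-08) and Ass1 2.35-fold lower (95% interval 2.01 to 2.74, adjusted p = 5.79e-07). The OC.2+ values of Arg1 lay below the array medians, so its fold rests on dim signal.

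The remaining enzymes differed less. Slc25a15 was 1.71-fold lower in the OC.2+ cells than in the OC.2- cells (95% interval 1.46 to 2.00), Asl 1.60-fold lower (95% interval 1.41 to 1.82) and Nags 1.39-fold lower (95% interval 1.22 to 1.59), with adjusted p of 4.40e-05, 2.79e-05 and 0.000526. The OC.2+ arrays of these 7 genes all lay below the OC.2- arrays, as for 20.7% of all genes. Those of Arg2 lay above, as for 25.8%, at a log2 difference of 0.18 ± 0.09 (SE, adjusted p = 0.124, 95% interval -0.0045 to 0.37). The 3 comparisons share their arrays pairwise, so their values for a gene are not independent of each other.

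**Figure D2:**
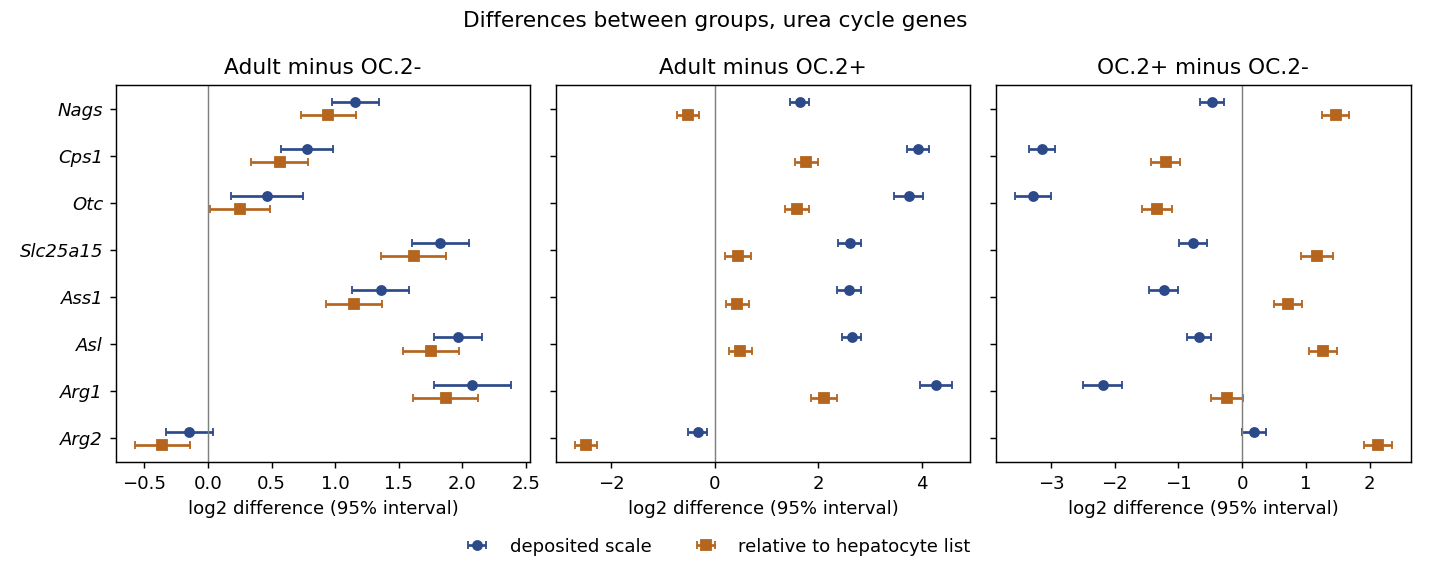
Log2 differences with 95% intervals from limma for the 8 measured urea cycle genes in the 3 comparisons, on the deposited scale (circles) and after centring each array on the 12 hepatocyte genes (squares). On the deposited scale 7 genes are higher in adult hepatocytes in both comparisons and lower in the OC.2+ cells when set against OC.2- cells. After centring, Nags, Slc25a15, Ass1 and Asl lie on the other side of 0 between the fetal groups, and Nags also between adult hepatocytes and OC.2+ cells.

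Because the yardstick genes were themselves 1.94 log2 units lower in the OC.2+ cells than in the OC.2- cells and 2.15 lower in those cells than in adult hepatocytes, each member was also read relative to their mean on the same array. This centring shifted the median of all genes from 0.04 to 1.98 in the comparison of the fetal groups and from -0.11 to -2.26 in that of adult hepatocytes with OC.2+ cells, so a value from it says only how a gene differed beside these 12 genes. In the comparison of adult hepatocytes with OC.2+ cells it left 4.08% of all genes higher and 94.3% lower. Alb, one of them, lies near the top of the intensity range and differed by -0.32 between the fetal groups.

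Relative to the yardstick, Otc was still 2.52-fold and Cps1 2.30-fold lower in the OC.2+ cells than in the OC.2- cells (log2 differences -1.34 ± 0.11 and -1.20 ± 0.11, SE). Arg1 differed by -0.24 ± 0.12 there (adjusted p = 0.0625, 95% interval -0.50 to 0.01). By contrast Nags was 2.76-fold, Asl 2.40-fold, Slc25a15 2.25-fold and Ass1 1.64-fold higher in the OC.2+ cells relative to the yardstick. Cps1 and Otc thus fell by more than the mean of the 12 hepatocyte genes, and Nags, Asl, Slc25a15 and Ass1 by less than that mean. In OC.2- cells Nags averaged 7.83, Asl 7.74 and Slc25a15 8.29, while the medians of the OC.2+ arrays were 6.45 to 6.47. A fall of 1.94, as for the yardstick, would take each of them below those medians, where differences are understated. How far this limit set their place beside the yardstick was not tested. Ass1 averaged 11.52 in OC.2- cells. Single genes of the 12 differed widely, at -0.32 for Alb and -2.85 for Apob, and Alb fell by less than Nags, Asl, Slc25a15 or Ass1. Between adult hepatocytes and OC.2- cells, where the yardstick differed by 0.21, every log2 difference moves down by that amount. The positive ones shrink, while that of the dim Arg2 goes from -0.15 to -0.36 (limma adjusted p = 0.00714). Arg1 was 3.65-fold higher in adult hepatocytes relative to the yardstick, Asl 3.37-fold, Slc25a15 3.07-fold Ass1 2.22-fold and Nags 1.93-fold. Cps1 was 1.48-fold higher, and Otc stood 0.25 ± 0.11 log2 units apart (adjusted p = 0.0548). Set against OC.2+ cells relative to the yardstick, Arg1 was 4.32-fold, Cps1 3.41-fold and Otc 3.01-fold higher in adult hepatocytes. There Asl was only 1.40-fold, Slc25a15 1.36-fold and Ass1 1.35-fold higher. Nags was 1.43-fold and the dim Arg2 5.60-fold lower.

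**Figure D3:**
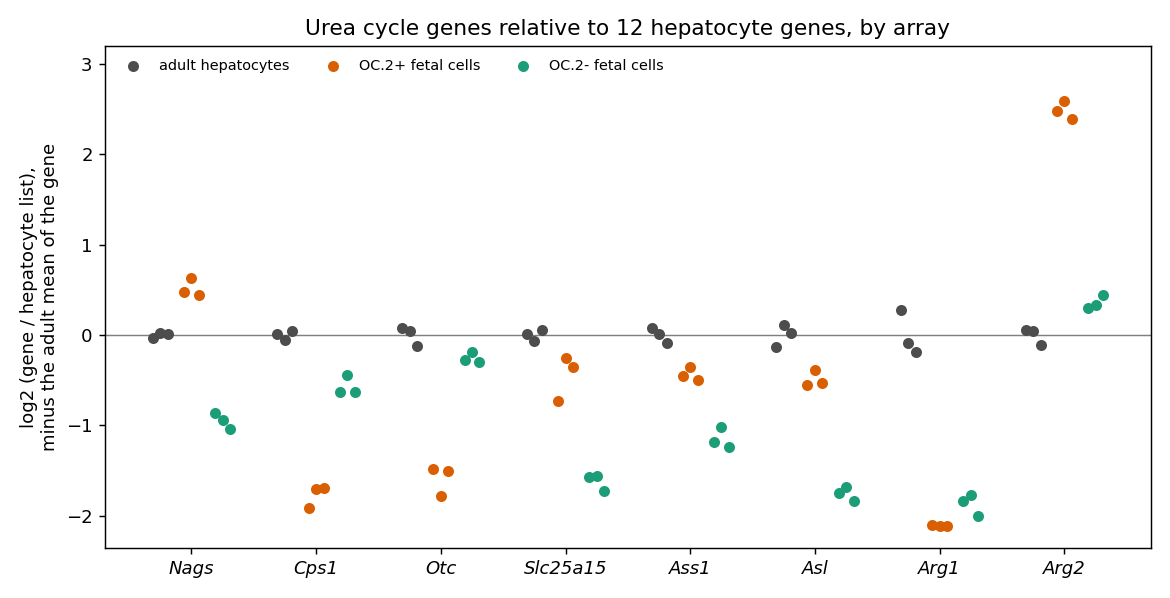
Log2 ratio of each urea cycle gene to the mean of the 12 hepatocyte genes on the same array, with the adult mean of the gene set to 0 and a point per array. Cps1 and Otc lie lowest on the OC.2+ arrays, Nags, Slc25a15, Ass1 and Asl lie lowest on the OC.2- arrays, and Arg1 lies well below the adult arrays in both fetal groups.

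Ratios of genes on 1 array, which no shift of a whole array can move, are given as a description for 2 pairs chosen after their values were seen, with no test. The log2 ratio of Arg1 to Otc was 0.13 ± 0.17 in adult hepatocytes, -0.39 ± 0.16 in OC.2+ and -1.48 ± 0.08 in OC.2- cells (SD, n = 3). That of Asl to Cps1 was -2.57 ± 0.15 in adult hepatocytes, -1.29 ± 0.10 in OC.2+ and -3.76 ± 0.06 in OC.2- cells. The ratios are of probe signals and do not compare the abundance of the enzymes. In OC.2+ cells Arg1 (6.19 to 6.44) lay below the array medians and Otc (6.39 to 6.92) near them. The ratio of Arg1 to Otc there thus rests on dim signal. The planned ratio of Arg2 to Arg1 is not given because Arg2 was too dim to read.

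Over the 9 arrays some members lay close together and others stood alone. Cps1 and Otc followed each other with a root mean square difference of 0.19 log2 units after each gene was centred on its own mean, and Asl and Slc25a15 with 0.13. Ass1 lay 0.25 from Slc25a15 and 0.29 from Asl. Cps1 lay 1.01 from Asl, and the nearest other member was 0.42 from Nags, 0.57 from Arg1 and 0.82 from Arg2. Among all other genes, those nearest to Cps1 were Slc2a2 (the hepatocyte glucose transporter, 0.09), C8b (a complement component, 0.10) and Hpd (an enzyme of tyrosine breakdown, 0.10). Nearest to Otc were Cpb2 (a plasma carboxypeptidase, 0.05), Hgd (also of tyrosine breakdown, 0.11) and Serpind1 (heparin cofactor II, 0.13). For Ass1 they were Nit1, Tmem135 and Pccb, for Asl Rcbtb2, Dpy19l3 and Clpx (a mitochondrial protease subunit), and for Arg1 Mat1a (the liver methionine adenosyltransferase), Fxyd1 and St3gal6, at 0.06 to 0.15. The arrays share only the 3 groups, so these distances describe group means.

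The promoter windows of Cps1 and Otc and of Asl and Slc25a15 are shown because these were the closest members across the arrays. Each runs from 250 bases before to 50 bases after a start site in the RefSeq table (GRCr8), which gave windows for 7 of the 9 genes. Capitals mark exact matches, on either strand, to 4 motifs. The first is the C/EBP motif, searched as TTGCNNAA, and the second the HNF4 motif, searched as CAAAGTCCA. The third, bound by the factor NF-Y, was searched as CCAAT. The last is the box near many start sites that binds the general transcription machinery, searched as TATAAA. The windows lie at chr9:76063613-76063912 (+ strand), chrX:15202424-15202723 (- strand), chr12:32295658-32295957 (+ strand) and chr16:76336620-76336919 (+ strand).
Cps1: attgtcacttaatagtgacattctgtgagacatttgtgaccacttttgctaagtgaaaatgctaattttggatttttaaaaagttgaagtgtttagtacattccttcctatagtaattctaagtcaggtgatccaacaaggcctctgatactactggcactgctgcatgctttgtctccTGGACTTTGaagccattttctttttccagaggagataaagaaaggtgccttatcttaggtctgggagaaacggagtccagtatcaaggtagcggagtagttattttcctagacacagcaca
Otc: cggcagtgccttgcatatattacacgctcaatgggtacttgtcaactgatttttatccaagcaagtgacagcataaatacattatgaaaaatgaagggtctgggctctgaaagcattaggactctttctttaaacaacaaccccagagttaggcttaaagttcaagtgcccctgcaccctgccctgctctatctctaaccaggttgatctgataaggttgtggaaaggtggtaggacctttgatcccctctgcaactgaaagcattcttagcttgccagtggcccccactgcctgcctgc
Asl: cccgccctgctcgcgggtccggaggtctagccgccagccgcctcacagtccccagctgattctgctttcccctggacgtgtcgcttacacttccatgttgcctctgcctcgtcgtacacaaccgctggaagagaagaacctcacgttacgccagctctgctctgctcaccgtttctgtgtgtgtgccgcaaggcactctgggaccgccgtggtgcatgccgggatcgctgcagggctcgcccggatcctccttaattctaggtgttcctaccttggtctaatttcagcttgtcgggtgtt
Slc25a15: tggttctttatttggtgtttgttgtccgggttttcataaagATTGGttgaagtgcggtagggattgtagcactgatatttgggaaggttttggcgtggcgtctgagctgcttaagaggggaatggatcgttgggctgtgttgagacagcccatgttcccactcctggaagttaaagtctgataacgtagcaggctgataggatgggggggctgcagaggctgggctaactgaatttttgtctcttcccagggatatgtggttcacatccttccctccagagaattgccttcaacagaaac

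Cps1 held an HNF4 match, on the reverse strand and starting 71 bases before the start site, a motif found in 0.391% of the 33469 promoters in the table. Slc25a15 held a CCAAT match on the reverse strand, as did 37.5% of promoters on either strand, and the windows of Otc and Asl held none of the 4. No match to the C/EBP letters, present in 10.6% of promoters, was found in the windows of Cps1, Otc, Ass1, Asl, Nags or Slc25a15. Ass1 held a TATAAA match (14.2% of promoters). No window held matches to more than 1 motif. These are descriptions of letters in short windows, and distal sites lie outside them.

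Genes listed as regulators of the urea cycle differed between the same groups. Of the 15 measured, 9 were higher and 2 lower in adult hepatocytes than in OC.2- cells (20.9% and 23.7% of all genes). Against OC.2+ cells 14 were higher and 1 lower in adult hepatocytes (23.4% and 32% of all genes). Relative to the yardstick these counts were 4 and 9, where 4.08% of all genes were higher and 94.3% lower. Between the fetal groups 1 was higher and 10 lower in OC.2+ cells (20.3% and 18.2% of all genes). Relative to the yardstick 11 were higher and 2 lower there, where 96.9% of all genes were higher. Hnf4a, a nuclear receptor central to hepatocyte identity, had 7.29, 7.17 and 7.26 in OC.2+ cells, against 9.84, 10.02 and 9.67 in OC.2- cells, and was one of the yardstick genes. Cebpa, whose product binds the promoters of several cycle genes in rodents, had 9.32, 9.40 and 9.55 in adult hepatocytes, 7.12, 6.80 and 6.85 in OC.2+ and 8.42, 8.42 and 8.04 in OC.2- cells. Its log2 difference was 1.13 ± 0.12 between adult hepatocytes and OC.2- cells (adjusted p = 5.21e-06) and -1.37 ± 0.12 between OC.2+ and OC.2- cells (adjusted p = 8.86e-07), though 0.58 for that last pair relative to the yardstick. Gcgr, the glucagon receptor, was 2.46-fold higher in adult hepatocytes than in OC.2- cells and 6.43-fold higher than in OC.2+ cells. Ppara and Ppargc1a, which serve the fasting response, ran the other way against OC.2- cells, with log2 differences of -0.87 ± 0.13 and -1.03 ± 0.12. The adult values of Ppargc1a (6.10, 6.04 and 5.64) all lay below the medians of their arrays, so its difference rests on dim signal. Nr1h4, the bile acid receptor, was 3.69-fold higher in adult hepatocytes than in OC.2- cells. Foxa1, a pioneer factor of liver, averaged 7.50 in adult hepatocytes and 5.95 in OC.2- cells, the last below the array medians.

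Genes that supply ammonia and amino groups were mostly higher in adult hepatocytes on the deposited scale. Of the 20 measured, 14 were higher and 4 lower in adult hepatocytes than in OC.2- cells (20.9% and 23.7% of all genes). The list median there was 1.05. Against OC.2+ cells the counts were 19 and 0 (23.4% and 32% of all genes), with a median of 1.96. Relative to the yardstick these last counts became 8 and 9 (4.08% and 94.3% of all genes). In OC.2+ against OC.2- cells 1 was higher and 16 lower (20.3% and 18.2% of all genes), against 14 and 4 relative to the yardstick (96.9% of all genes higher). Glud1, the glutamate dehydrogenase that releases ammonia in mitochondria, had 11.76, 11.74 and 11.74 in adult hepatocytes, 9.75, 9.74 and 9.56 in OC.2+ and 12.12, 12.25 and 12.01 in OC.2- cells. It was thus 1.30-fold lower in adult hepatocytes than in OC.2- cells (adjusted p = 0.00285), a call lost after cyclic loess (adjusted p = 0.25), and 5.44-fold lower in the OC.2+ cells than in the OC.2- cells (adjusted p = 2.51e-10). The mitochondrial transaminase Got2 was likewise lower in adult hepatocytes than in OC.2- cells, by 1.26-fold (adjusted p = 0.0262), though not at the threshold after median centring (adjusted p = 0.193) or cyclic loess (adjusted p = 0.156). Slc7a7, a cationic amino acid transporter subunit, was lower there by 1.57-fold. Its adult values (6.07, 6.35 and 6.15) lay below or near the medians of their arrays (6.31 to 6.34), so this fold rests on dim signal.

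The genes of this list with the largest differences act in transport and breakdown of amino acids, while others of that kind differed little or were lower in adult hepatocytes. Tat (tyrosine aminotransferase) averaged 11.87 in adult hepatocytes, 5.15 in OC.2+ and 4.96 in OC.2- cells on the log2 scale. Hal (histidine ammonia lyase) averaged 10.53, 6.13 and 7.13 in the same order of groups. Tat in both fetal groups and Hal in OC.2+ cells lay below the array medians, so no fold is given for them. The neutral amino acid transporter Slc38a4 was 9.80-fold higher in adult hepatocytes than in OC.2- cells and 39.7-fold higher than in OC.2+ cells. Slc38a3, a glutamine transporter, was 8.48-fold and Slc7a2, which imports arginine and ornithine into hepatocytes, 5.76-fold lower in the OC.2+ cells than in the OC.2- cells.

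Genes of the arginine, ornithine, proline and polyamine branches differed in both directions. Of the 20 measured, 6 were higher and 10 lower in adult hepatocytes than in OC.2- cells (20.9% and 23.7% of all genes). The same counts were found against OC.2+ cells (23.4% and 32% of all genes). Relative to the yardstick the latter were 2 and 17, where 4.08% of all genes were higher and 94.3% lower. Between the fetal groups 9 were higher and 7 lower in OC.2+ cells (20.3% and 18.2% of all genes), against 19 and 1 relative to the yardstick, close to the 96.9% of all genes higher there. Oat, which turns ornithine towards proline and glutamate, had 9.89, 9.89 and 10.14 in adult hepatocytes, 8.03, 8.08 and 8.11 in OC.2+ and 7.55, 7.64 and 7.72 in OC.2- cells. It was the reverse of Otc between the fetal groups, at 0.44 ± 0.09 on the log2 scale (adjusted p = 0.00125), and was 5.04-fold higher in adult hepatocytes than in OC.2- cells (adjusted p = 2.75e-10). Prodh, which starts proline breakdown, averaged 9.12 in adult hepatocytes and 6.32 in OC.2- cells, the last below the medians of those arrays. Agmat (agmatinase) was 3.48-fold higher in adult hepatocytes than in OC.2- cells. Aldh18a1, which makes the precursor of ornithine and proline from glutamate, was lower in adult hepatocytes, by 2.05-fold against OC.2- and 3.38-fold against OC.2+ cells. Srm (spermidine synthase) was lower in adult hepatocytes by 2.70-fold and 2.43-fold in the same order. The arginine importer Slc7a1, of low level in adult hepatocytes (6.62, 6.63 and 6.66), was 2.35-fold higher in the OC.2+ cells than in the OC.2- cells, opposite to Slc7a2. Of the creatine pathway, Gatm, which uses arginine, was 3.10-fold lower in adult hepatocytes than in OC.2- cells, and Gamt, which follows it, was 6.75-fold lower in the OC.2+ cells than in the OC.2- cells. The adult values of Gatm (6.29, 6.41 and 6.52) lay near the medians of their arrays (6.31 to 6.34).

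**Figure D4:**
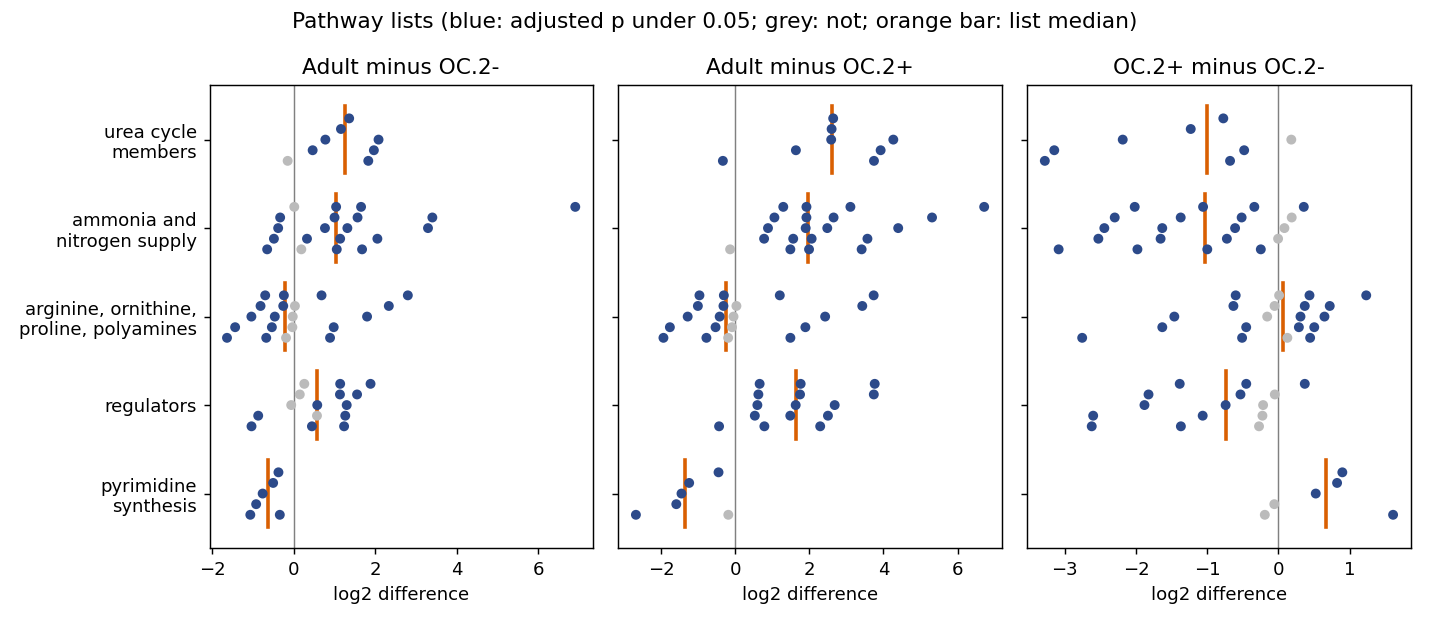
Log2 differences of the urea cycle genes and of the related lists in the 3 comparisons, with a point per gene, blue at adjusted p under 0.05 and grey otherwise, and the list median as an orange bar. In adult hepatocytes against OC.2- cells the medians are 1.26 for the urea cycle genes, 1.05 for ammonia and nitrogen supply, -0.21 for the arginine and ornithine branches, 0.58 for regulators and -0.63 for pyrimidine synthesis. All values are on the deposited scale, and the text gives the counts relative to the yardstick genes.

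Carbamoyl phosphate is also made in the cytosol for pyrimidines, by Cad. All 6 genes of pyrimidine synthesis were lower in adult hepatocytes than in OC.2- cells (23.7% of all genes). Against OC.2+ cells 5 of the 6 were lower in adult hepatocytes (32% of all genes). In the OC.2+ cells 4 were higher than in the OC.2- cells (20.3% of all genes). The counts for adult hepatocytes kept their direction under the 4 scalings, of which the yardstick made 94.3% of all genes lower than in OC.2+ cells. Between the fetal groups 4 were also higher under median centring, 4 with 1 lower after quantile normalization or cyclic loess, and 6 relative to the yardstick (96.9% of all genes). Cad had 7.36, 7.31 and 7.43 in adult hepatocytes, 8.60, 8.59 and 8.62 in OC.2+ and 7.72, 7.74 and 7.65 in OC.2- cells, so each group stood apart from the others. It was 1.86-fold higher in the OC.2+ cells than in the OC.2- cells (adjusted p = 3.46e-07), where Cps1 was 8.85-fold lower. The log2 ratio of Cad to Cps1 was -4.92 ± 0.08 in adult hepatocytes, 0.24 ± 0.06 in OC.2+ and -3.80 ± 0.13 in OC.2- cells (exact permutation p = 0.1 for each pair of groups, the smallest possible). Uck2, a uridine and cytidine kinase, was 3.06-fold higher in the OC.2+ cells than in the OC.2- cells. Ctps1 (CTP synthase) averaged 6.72 in OC.2+ and 5.89 in OC.2- cells, the last below the array medians.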

How the data were processed

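RNA was isolated with the mirVana kit, and 150 ng entered the Affymetrix whole-transcript labelling, per the labels' protocols. The authors deposited intensity values on a linear scale, per the table itself. The submitters' processing notes list Partek 6.6 and RMA without saying what each did, and no genome build is named there. RMA as usually run compresses differences of dim genes. Of 28826 rows, platform annotation gave 1 symbol to 15209, several to 306 and none to 13311. Log2 was taken and each gene was read at its row of highest mean, which left 14497 genes (494 had several rows, no urea cycle gene did).

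Group means were fitted with limma 3.58.1 (R 4.3.3) over all 9 arrays, with Benjamini-Hochberg adjustment over all genes and a threshold of 0.05. The fit was tested on simulated data. The number of arrays limits the precision. The members, lists and tests were chosen with earlier results of these data known. Named besides the members are, per list and comparison, up to 3 called genes each way with the largest differences and no overlap of arrays, then Alb, Hnf4a, Cebpa, Glud1, Oat and Cad whatever their values, and the 3 genes nearest each of 5 enzymes. Some listed genes are not reported here. Alternatives covered scaling, filters, variance models, a replicate block and left-out replicates.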

Additional observations from a re-analysis of the deposited data

How the results depend on the processing

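Over 522 recomputed differences of the members (22 other settings), 507 kept their direction and their side of the threshold, 8 were no longer past it, 2 newly passed it and 5 reversed. The 5 reversals all came from centring on the hepatocyte genes: Nags in adult hepatocytes against OC.2+ cells (-0.52), and Ass1 (0.71), Asl (1.27), Nags (1.46) and Slc25a15 (1.17) in OC.2+ against OC.2- cells. That centring also ended the call of Arg1 between the fetal groups (-0.24). The number of members called ranged from 6 to 7 in adult hepatocytes against OC.2- cells and from 7 to 8 against OC.2+ cells, and was 7 between the fetal groups in every setting run. Counts over all genes rose by construction with more rows tested (9811 of 28826 rows against OC.2- and 12841 against OC.2+ cells) and with the hepatocyte centring (14255 in adult hepatocytes against OC.2+ cells, 14306 between the fetal groups), against 6458, 8034 and 5576 in the 3 comparisons as reported. Higher genes were 46.9% of calls in adult hepatocytes against OC.2- cells, 65.4% after median centring, 57.5% after cyclic loess and 22.0% after hepatocyte centring. Against OC.2+ cells they were 42.2%, 57.5%, 57.8% and 4.15%, and between the fetal groups 52.8%, with 98.2% after hepatocyte centring. Median centring moved the median of all genes from -0.07 to 0.06 against OC.2- and from -0.11 to 0.03 against OC.2+ cells. The replicate number as a block gave 7, 8 and 7 members called, the same as without it; same-numbered arrays correlated at -0.226 to 0.106 in their deviations, so the numbers were not taken as pairs. Differences at dim rows, Arg2 above all, are limited by the signal over background, which the deposited values do not give.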
